A study of Mus musculus with 4 samples.

Results

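The regions described here are 507 islands of accessible chromatin with many reads on the peak side of the deposited table relative to its control side. They were chosen from 16584 islands by their own reads: at least 16 peak-side reads, and a ratio of peak-side to control-side reads of at least 1.2. Of the 9660 islands with 16 or more peak-side reads, 507 passed the ratio (5.25%). The data are DNase-seq libraries, in which open DNA is found by its sensitivity to the nuclease DNase I, from lymphoid tissue inducer (LTi) cells of mouse Peyer's patches. The series has 2 libraries from Tcf7+/+ mice and 2 labelled Tcf7-KO, from mice with floxed Tcf7 and a Cre, all C57BL/6, each made from 300 cells sorted as Lin- CD127+ KLRG1- NK1.1- NKp46- CCR6+. In the second group the Cre recombinase removes Tcf7, which encodes the transcription factor TCF-1. The Cre is not restricted to LTi cells. The labels give neither age nor sex, nor whether mice were pooled, nor whether the Tcf7+/+ mice carry the Cre.

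No header or label ties either side of the table to a genotype. The column called control may hold a background track or the control mice, and both read columns stand for unnamed libraries. A high ratio is therefore a property of the table. It cannot be read as a gain or loss of accessibility in Tcf7-KO cells, and no genotypes were compared.

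Nucleosome-free DNA at promoters is open in most cells, while distal enhancers, which lie within introns or between genes, tend to be open in particular cell types. LTi cells belong to the group 3 innate lymphoid cells. They respond to interleukin-1 and interleukin-7, and induce lymph nodes through lymphotoxin and RANKL, and Peyer's patches through lymphotoxin. CpG dinucleotides are rare in most of the mouse genome but dense in CpG islands, which cover the promoters of most widely expressed genes.

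Sequence is shown for 4 high-ratio islands that hold a transcription start, since the CpG content of such promoters is one of the features examined. Each is the 250 bases before a RefSeq start site (GRCm38.p6, the assembly that mm10 names), 5′ to 3′ on the gene's strand, with CpG dinucleotides in capitals. Kit and Tnfsf11 are genes of LTi cells, Hk2 is among the islands with the most reads, and the Ncoa7 start is an internal one.
Kit, chr5:75574737-75574986, plus strand: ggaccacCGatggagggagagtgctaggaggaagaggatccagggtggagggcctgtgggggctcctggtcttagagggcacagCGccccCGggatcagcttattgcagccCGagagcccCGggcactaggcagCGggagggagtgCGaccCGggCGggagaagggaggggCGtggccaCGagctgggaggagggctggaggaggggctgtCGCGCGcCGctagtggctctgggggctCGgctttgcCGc
Tnfsf11, chr14:78308044-78308293, minus strand: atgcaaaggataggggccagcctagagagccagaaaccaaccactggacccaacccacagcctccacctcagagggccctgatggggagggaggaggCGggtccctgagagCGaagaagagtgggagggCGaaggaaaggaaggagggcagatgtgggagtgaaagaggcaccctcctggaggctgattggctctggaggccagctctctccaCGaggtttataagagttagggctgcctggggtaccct
Hk2, chr6:82774455-82774704, minus strand: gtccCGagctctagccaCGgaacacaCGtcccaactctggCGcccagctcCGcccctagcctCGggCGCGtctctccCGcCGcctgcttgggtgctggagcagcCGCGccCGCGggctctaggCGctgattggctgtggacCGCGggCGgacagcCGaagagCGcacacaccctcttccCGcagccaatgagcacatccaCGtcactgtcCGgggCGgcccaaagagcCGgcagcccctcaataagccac
Ncoa7, chr10:30655868-30656117, minus strand: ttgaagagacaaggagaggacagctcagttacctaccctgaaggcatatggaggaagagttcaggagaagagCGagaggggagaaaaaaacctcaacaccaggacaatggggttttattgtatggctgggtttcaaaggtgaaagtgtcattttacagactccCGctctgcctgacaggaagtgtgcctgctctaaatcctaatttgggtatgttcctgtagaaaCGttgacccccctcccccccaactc
The stretch before Hk2 holds 25 CpGs and that before Kit 17, while those before Tnfsf11 and the internal Ncoa7 start hold 4 and 3. The Ncoa7 stretch also holds TTCAAAG from position 132, counted from 1 at its 5′ end, which reads as the TCF/LEF letters CTTTGAA on the opposite strand.

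The ratios that chose the islands ran from 1.2 to 16, with a median of 1.43 (interquartile range 1.28 to 1.64). Over all islands the median was 0.692. The ratio uses reads as deposited. The authors' deposited table multiplies control-side reads by 1 factor, 0.345, so a ratio of 1.2 is a fold of 3.48 there, and the folds of the 507 islands ran from 3.48 to 46.4. All 507 have an FDR under 0.05 in the authors' deposited table, as have 82.3% of all islands, and since the rule uses the same reads this count carries nothing further. The islands had a median of 20 peak-side reads (interquartile range 17 to 23, highest 61) and 14 control-side reads (11 to 17, highest 50). Exactly 16 peak-side reads were found in 94 of them, and 30 or more in 64.

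**Figure D1:**
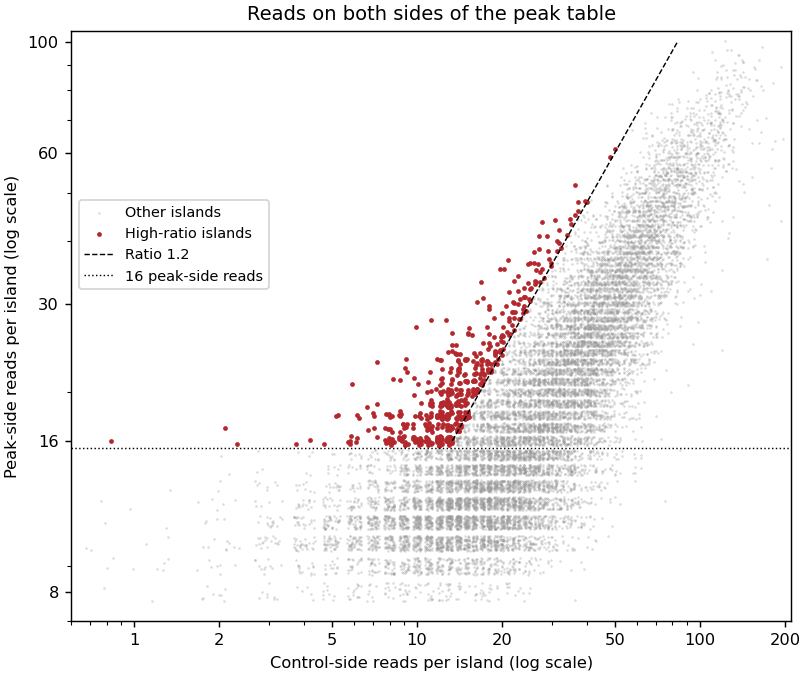
Peak-side against control-side reads per island, both on log scales, for islands of up to 100 and 200 reads with at least 1 control-side read. Points are spread slightly so that equal counts do not overlap. The 507 high-ratio islands (red) lie above the line of ratio 1.2 (dashed) and of 16 peak-side reads (dotted), and none has over 61 peak-side reads.

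At these depths single ratios are loosely known. The exact (Clopper-Pearson) 95% counting interval of a ratio, which covers counting error only, had an upper bound 4.62 times its lower bound at the median. Its lower bound lay above the median ratio of all islands in 249 of the 507, above 1 in 26 and at or above 1.2 in 11. A ratio of 1 means equal unscaled reads on both sides, which is a fold of 2.90 in the authors' deposited table. Just inside the threshold, 20 islands had a ratio of exactly 1.2, among them those at Adgrl1 (48 peak-side and 40 control-side reads), Lmf2 and Kiz (36 and 30 each), Iqsec1 (30 and 25) and Fcgr4 (24 and 20). Just outside it lay islands near Strip2 (37 and 31), Elovl6 and Hmgn3 (31 and 26 each) and Emb (25 and 21). The intervals on either side of the line overlap widely. As reads were counted without molecular identifiers, they are not independent molecules, and the intervals understate the error for that reason too.

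The islands lay mostly away from the ends of genes, which the rule did not use. Of the 507, 153 (30.2%, Wilson 95% interval 26.3 to 34.3) were gene-end islands, no more than 1 kb from where a protein-coding gene begins or stops, 213 (42.0%, 37.8 to 46.4) elsewhere within a gene and 141 (27.8%, 24.1 to 31.9) between genes. Among the other 9153 islands with 16 or more peak-side reads, 6830 (74.6%, 73.7 to 75.5) lay at a gene end, 1307 (14.3%) elsewhere within a gene and 1016 (11.1%) between genes. Put the other way, 2.19% of gene-end islands of this depth passed the ratio (1.87 to 2.56), against 14% within genes (12.4 to 15.8) and 12.2% between genes (10.4 to 14.2). These intervals treat islands as independent, and no test was run, since islands of 1 table are not replicates.

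Above a ratio of 0.4, the share at gene ends was lower in each higher class of ratio. It was 80.5% from 0.4 to under 0.6, 66.7% from 0.8 to under 1.0, 50.8% just under the threshold, 39.5% from 1.2 to under 1.5, 20.0% from 1.5 to under 2.0 and 9.84% (6 of 61 islands) from 2.0 up. Islands with a ratio under 0.4 departed from this order, at 66.8%. Read depth moved with both: the high-ratio islands had fewer peak-side reads (median 20) than the other islands (26). Within 16 to 19 peak-side reads, 22.1% of 253 high-ratio islands and 59.5% of 2177 others lay at a gene end. Within 20 to 29 reads the shares were 32.1% of 190 and 73.5% of 3446, and with 30 or more they were 56.2% of 64 and 85.1% of 3530. The gap was thus present within each of the 3 classes of peak-side reads. The share itself rose with these reads on both sides of the threshold. The classes do not match control-side reads, whose medians were 12 against 27, 16 against 37 and 26 against 63. Total depth was therefore not held equal.

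**Figure D2:**
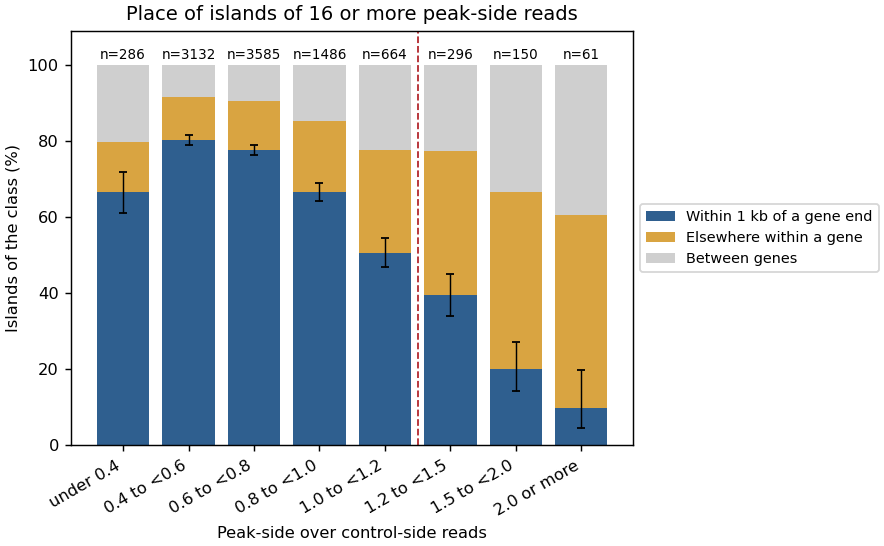
Place of the 9660 islands with 16 or more peak-side reads, by class of read ratio, as stacked shares in percent. Black bars are Wilson 95% intervals of the gene-end share, and the red dashed line is the threshold of 1.2. The gene-end share is 80.5% in the class from 0.4 to under 0.6 and 9.84% from 2.0 up.

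Start sites gave the same order. RefSeq promoters placed 21263 starts of 17492 protein-coding genes, and chromosome 18 was not used here. Of 496 high-ratio islands, 135 (27.2%) lay within 1 kb of a start, against 5911 of 8890 others (66.5%). The median distance to a start was 14.4 kb, and 26.8% lay over 50 kb from one, against 12.8% of the others. Where the strand of the gene was known, 113 of 131 high-ratio gene-end islands lay at a start and 18 (13.7%) at a far end alone, against 204 of 5710 (3.57%) among the others. The far-end islands included those of Gpr183, an oxysterol receptor (32 and 21 reads), Myd88, the adaptor of Toll-like and interleukin-1 receptors (16 and 10 reads, 1.6, 0.683 to 3.94), and Wwc1, which encodes the Hippo pathway protein KIBRA (19 and 11, 1.73, 0.781 to 4.02). Gpr132, a receptor for lipids and protons, had one 873 bp past its far end (18 and 11, 1.64, 0.732 to 3.83) and another within the gene (23 and 18, 1.28, 0.66 to 2.51).

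Of the 208 high-ratio islands elsewhere within genes, outside chromosome 18, 29 lay within 1 kb of an internal start of the gene that holds them. They included the internal starts of Pde4b, a cAMP phosphodiesterase (17 and 11 reads), Celf2, an RNA-binding splicing regulator (43 and 35), Hopx, a homeodomain-only cofactor (20 and 13), Fgd3, an exchange factor for Cdc42 (30 and 16), Jmjd1c, a jumonji-domain protein (20 and 16), and Ncoa7 (16 and 10). The other 179 have no annotated start within 1 kb.

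Widths were close to those of other islands. The median high-ratio island spanned 2000 bp (interquartile range 1400 to 2800), against 2200 bp (1600 to 3000) for the others. Within 16 to 19 reads the medians were 2000 and 1800 bp, and within 20 to 29 reads 2000 and 2000 bp. The widest, 9200 bp within Celf2 (chr2:6720801-6730000), held 43 and 35 reads. The narrowest spanned 200 bp: one within Pdgfa, a platelet-derived growth factor (16 and 13 reads), and one between genes on chromosome 8 (19 and 14). Krtap6-2, a hair keratin-associated protein gene, had 27 and 10 reads in 400 bp. By chromosome, the passing share of islands with 16 or more reads ran from 3.88% on chromosome 11 to 8.28% on chromosome 14 and 9.09% on X, where 11 of 121 islands passed (5.15 to 15.5). Neither Y nor mitochondrial DNA held one.

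Promoters inside the high-ratio islands were poorer in CpG than those inside the other islands of 16 or more reads. A whole promoter window (250 bases before to 50 after a start) lay inside 101 of the islands, giving 116 windows of 106 genes. Their CpG count over the count expected from base composition had a median of 0.739 (interquartile range 0.553 to 0.835), and 39 (33.6%) were under 0.6. For the 7046 windows inside the other islands of 16 or more reads the median was 0.833, with 13.5% under 0.6. The 1425 windows inside islands under 16 reads were close to the high-ratio ones, with a median of 0.741 and 30.7% under 0.6. For all 21263 windows the median was 0.567, with 52.3% under 0.6. By depth, 50%, 36.7% and 16.2% of the high-ratio windows were under 0.6 at 16 to 19, 20 to 29 and 30 or more reads, against 21.9%, 14.9% and 10% of the others. The GC content was 60.3% against 63.3% at the median. The poorest windows were those of the internal Pde4b start (0.0614) and of Mill2, an MHC class I-like gene (0.154). The windows of the internal Ncoa7 start and of Tnfsf11, whose stretches are printed above, stood at 0.231 and 0.25, those of Kit at 0.621 and 0.652 for a pair of starts, and that of Hk2 at 0.757.

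**Figure D3:**
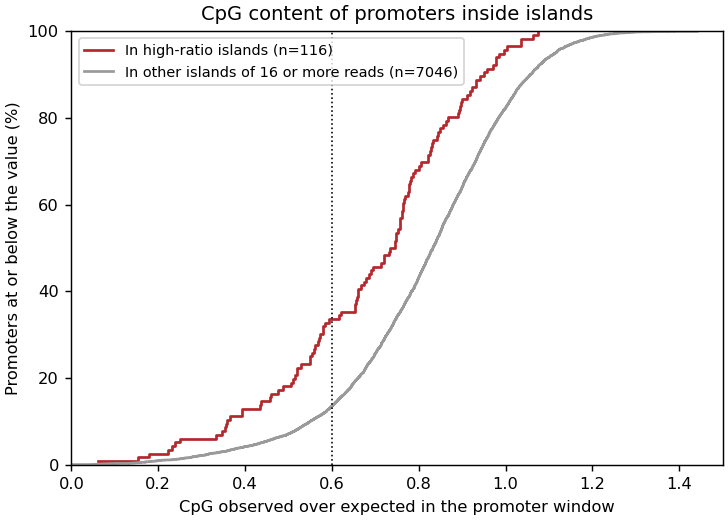
Cumulative share of promoter windows (percent) by CpG observed over expected, for 116 windows inside high-ratio islands (red) and 7046 inside the other islands with 16 or more reads (grey). The dotted line marks 0.6, below which lie 33.6% and 13.5% of the windows.

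Short motifs were counted on both strands of the same windows. The TCF/LEF letters CTTTGAT were in none of the 116 (2.20% of the other windows, 3.22% of all), and CTTTGAA was in 2 (1.72%, against 2.87% and 4.54%), at Uqcc1 and the internal Ncoa7 start. The nuclear receptor core AGGTCA was in 19 (16.4%, against 10.6% and 14.7%), the ETS core GGAAGT in 34 (29.3%, against 29.3% and 24.8%), TGTGGT for RUNX in 14 (12.1%, against 10.8% and 15%), TGANTCA for AP-1 in 4 (3.45%, against 3.42% and 6.99%) and GATAAG for GATA in 5 (4.31%, against 3.75% and 6.92%). CTTTGAT and CTTTGAA differ in their last letter, so a site counts for one of them, and a match is a description of letters. The 300-base windows leave out the islands away from starts, whose sequence was not analysed here.

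Of the 507 islands, 425 (83.8%) had a protein-coding gene end within 50 kb, against 96.1% of the others, and these named 411 genes. In 15 islands within a gene the nearest end belonged to a neighbouring gene rather than the host, such as the pair assigned to Eif2d that lies in Rassf5. Of the remaining 82, 43 lay deep within a gene and 39 lay between genes. Counting islands with a gene end within 50 kb, Il1r1 had 3 high-ratio islands and 12 genes had 2, namely Appl2, Eif2d, Fnbp1, Gpr132, Kit, Mapkapk2, Ncoa7, Nrip1, Parp1, Tnfsf11, Tox2 and Ust. The genes with a high-ratio island had a mean of 2.19 islands, against 1.46 for the 7576 genes that had an island of 16 or more reads but no high-ratio one. Genes with more islands have more chances to hold one that passes.

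The other islands of the same genes had ratios near those of other genes. Islands under 16 reads could not be chosen by the rule. In genes with a high-ratio island, 278 of them had a median ratio of 0.833, and 54 (19.4%) reached 1.2. In genes with an island of 16 or more reads but no high-ratio one, 2468 had a median of 0.812 and 564 (22.9%) reached 1.2. Of the 265 genes with a high-ratio island off the gene end, 144 also had gene-end islands assigned to them. These 153 islands had a median ratio of 0.682 (interquartile range 0.542 to 0.857), and 7 of them were high-ratio islands themselves. The 9083 gene-end islands of other genes, 146 of them high-ratio islands, had a median of 0.640 (0.531 to 0.780).

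The islands of largest ratio rested on few control-side reads. An island 15.7 kb from Slc44a3, a choline transporter-like gene (chr3:121548001-121548800), had 16 and 1 reads and a ratio of 16 (2.49 to 671). Within Ybx3, a cold-shock domain protein that binds DNA and RNA (chr6:131377601-131378200), 17 and 2 reads gave 8.5 (2.02 to 75.9). Islands at Spon2, a secreted matrix protein, and within Kansl1, a scaffold of the NSL histone acetyltransferase complex, had 16 and 4 reads each (4, 1.29 to 16.4). Tmtc4, which encodes an O-mannosyltransferase, had 18 and 5 reads within the gene (3.6, 1.29 to 12.4). Among the 15 largest ratios, 2 lay at a gene end, the islands of Spon2 and Krtap6-2. No high-ratio island had 0 control-side reads, and the 11 islands of the table that do have at most 13 peak-side reads.

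Of the 15 islands with the most reads, 10 lay at gene ends, and their ratios were close to the threshold. Fbxo27, a substrate receptor of ubiquitin ligases, had 61 and 50 reads (1.22, 0.826 to 1.81), Sptlc2, a subunit of the first enzyme of sphingolipid synthesis, 59 and 48 (1.23, 0.826 to 1.84), and Camkk1, a calcium-dependent kinase, 52 and 36 (1.44, 0.926 to 2.27). Hk2, the hexokinase that phosphorylates glucose at the entry to glycolysis, had 48 and 37 reads over the CpG-rich stretch shown above (1.3, 0.827 to 2.05). Away from gene ends, an island 7.54 kb from Npnt, an integrin ligand, had 44 and 28 reads (1.57, 0.957 to 2.62), and one within Fnbp1, a membrane-bending actin regulator, had 44 and 35. The interval of each of these reaches below 1.

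**Figure D4:**
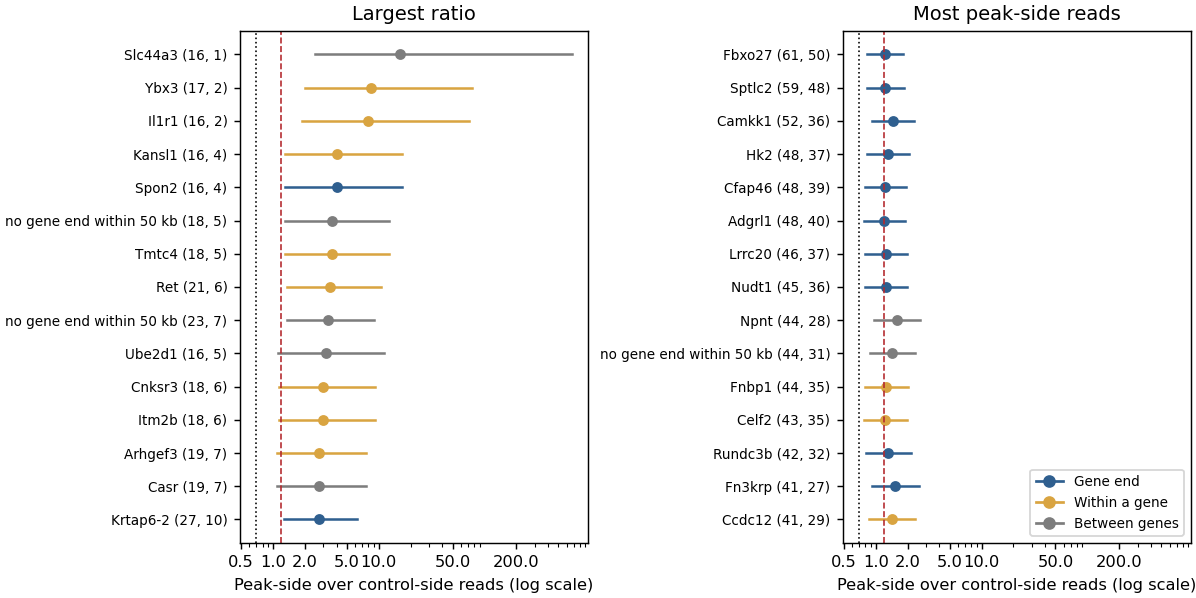
Peak-side over control-side reads (log scale) for the 15 high-ratio islands of largest ratio and the 15 with the most peak-side reads. Each is named by its gene, with both read counts in parentheses, lines are exact 95% counting intervals and colours give the place. The red dashed line is 1.2 and the black dotted line the median of all islands, 0.692. Ratios run from 2.7 to 16 on the left and from 1.2 to 1.57 on the right.

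A list of identity genes of group 3 innate lymphoid cells, LTi cells included, was read against these backgrounds. Of 23 such genes, 21 had an island of any kind and Ccr6 and Cd4 had none, although the sort used CCR6. Of their 37 islands with 16 or more reads, 10 (27.0%) had a high ratio, where 5.25% of all islands did. Away from gene ends it was 8 of 20, where 13.2% of all such islands passed, and at gene ends 2 of 17, where 2.19% passed. The 10 belong to 5 of 19 genes, where 411 of 7987 genes with an island of that depth (5.15%) had a high-ratio one. The list was written with earlier results of these data known, so the counts are a description.

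Il1r1, the receptor through which interleukin-1 acts on group 3 cells, has 7 islands over the gene and upstream of it. The first high-ratio one, centred 21.5 kb into the gene (chr1:40243601-40244400), had 16 and 2 reads and a ratio of 8 (1.88 to 71.7). The others, 60.6 and 92.6 kb from the gene start, had 29 and 22 reads (1.32, 0.731 to 2.41) and 16 and 11 reads (1.45, 0.634 to 3.47), the latter at the far end of the gene. The 4 remaining islands had ratios of 0.867 to 1.17. All 7 intervals overlap, although the lower bound of the first lies above each of the other 6 ratios.

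Kit, the receptor for stem cell factor, had 38 and 26 reads over its start (chr5:75572801-75577200, 1.46, 0.865 to 2.51) and 16 and 11 reads 25.8 kb into the gene (1.45, 0.634 to 3.47). Its island 48.6 kb into the gene had 27 and 43 reads and a ratio of 0.628 (0.373 to 1.04). Tox2, an HMG-box factor of innate lymphoid cell development, had 19 and 14 reads at 26.1 kb (1.36, 0.645 to 2.93) and 18 and 7 reads at 95.9 kb (2.57, 1.02 to 7.28), while its start had 22 and 23 (0.957). Rora, a nuclear receptor of innate lymphoid cells, has 7 islands within the gene, of which the one farthest from its start (chr9:69339201-69341400) had 28 and 11 reads and a ratio of 2.55 (1.23 to 5.67). The 6 others ran from 0.714 to 1.4. Ncoa7, a coregulator of nuclear receptors, had high-ratio islands with 16 and 10 and with 17 and 11 reads, and an island 5.30 kb into the gene at 0.551. Tox, an HMG-box factor needed for LTi cells, held 1 within its body, over 50 kb from its ends, with 28 and 21 reads (1.33, 0.73 to 2.47), while its gene-end island had 16 and 36.

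**Figure D5:**
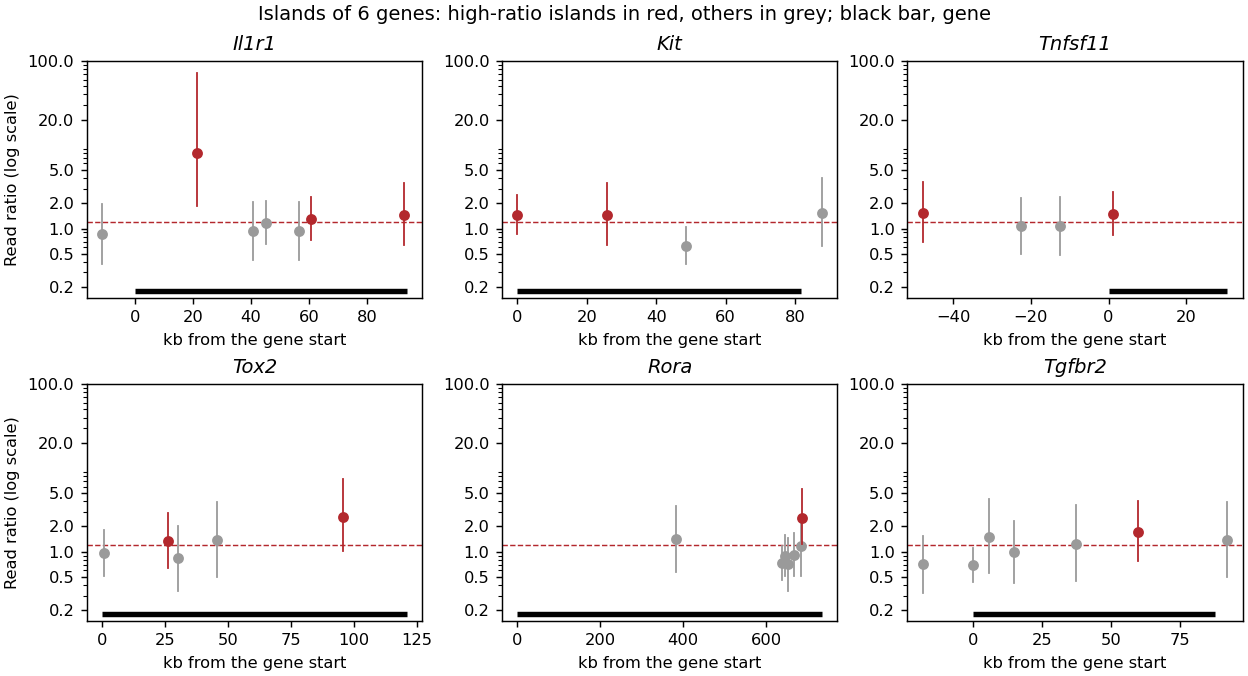
Islands of 6 genes by distance of the island's centre from the gene start (kb, along the gene) and read ratio (log scale), with exact 95% counting intervals. High-ratio islands are red, others grey, the black bar is the gene and the dashed line a ratio of 1.2. In Tox2, Rora and Tgfbr2 the red points lie 26.1 kb or more into the gene, while in Kit and Tnfsf11 one lies at the start.

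Of 17 LTi cytokine and TNF ligand genes, 7 had an island of 16 or more peak-side reads, and 1 of these had high-ratio islands. They were 2 of the list's 10 islands of that depth (20%), where 5.25% of all such islands passed. Tnfsf11, which encodes RANKL, had 33 and 22 reads over its start (chr14:78305201-78308800, 1.5, 0.849 to 2.7) and 17 and 11 reads 46.2 kb upstream of it (1.55, 0.683 to 3.65). Both islands between them had ratios of 1.07. Lta, Il17a, Il17f and Il22 had no island of 16 or more peak-side reads, and the Ltb island did not reach the ratio.

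In the TCF-1, LEF and Wnt list, 4 of 28 islands with 16 or more reads passed (14.3%), where 5.25% of all such islands did. Away from gene ends 2 of 10 passed (13.2% of all such islands), and at gene ends 2 of 18 (2.19% of all). The 4 lay 1 each at 4 genes, and counts this small are a description. The one assigned to Tcf7, 34.6 kb upstream of its start (chr11:52318001-52319200), had 29 and 18 reads (1.61, 0.865 to 3.08), and the Tcf7 start itself had 19 and 38 (0.500, 0.272 to 0.889). Dkk3, a Dickkopf family member, had 21 and 8 reads 2.72 kb from its end (2.62, 1.12 to 6.85). Rnf43, a ubiquitin ligase that removes Frizzled receptors, had 26 and 20 (1.3), and Nkd1, an inhibitor of Dishevelled, 22 and 17 (1.29). Outside that list, Kremen1, a Dickkopf receptor, and Frat1, which binds GSK3, had 16 and 9 and 31 and 25 reads. Both were picked after the islands were known.

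For receptors of neurotrophic and other neuronal signals, 4 of 11 islands with 16 or more reads passed (36.4%), where 5.25% of all such islands did. Away from gene ends 3 of 5 passed (13.2% of all such islands), and at gene ends 1 of 6 (2.19% of all). Ret and Casr of this list had been seen before, and counts this small are a description. Ret, the receptor for glial cell line-derived neurotrophic factors, had 21 and 6 reads within the gene (chr6:118166801-118167600, 3.50, 1.37 to 10.6), and its 3 other islands had ratios of 0.607 to 1.06. Its co-receptor gene Gfra1 had 22 and 17 reads over a start (1.29, 0.656 to 2.6). Casr, the calcium-sensing receptor, had 19 and 7 reads 13.0 kb from the gene (2.71, 1.09 to 7.64), and P2rx7, an ATP-gated channel, 23 and 18 (1.28, 0.660 to 2.51).

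Signalling and homing lists had 1 to 3 high-ratio islands each, where 5.25% of all islands with 16 or more reads passed. These counts are small, and no list was tested against that share. Of 30 islands of TNF receptor and NF-kB genes, 3 passed (10%). They lay 35.1 kb from Tnfaip3, a brake on NF-kB (16 and 6 reads, 2.67, 0.991 to 8.32), within Tnfrsf1b, a TNF receptor (17 and 13), and 2.15 kb from Traf1, a TNF receptor adaptor (16 and 12). The TGF-beta, Notch and SMAD list had 2 of 31 (6.45%). Tgfbr2, a TGF-beta receptor subunit, had 19 and 11 reads 59.9 kb into the gene (1.73, 0.781 to 4.02) and 33 and 47 over its start (0.702). Smad3, which carries the TGF-beta signal to DNA, had 27 and 22 reads (1.23, 0.673 to 2.26) in 1 of 9 islands, the other 8 lying at 0.500 to 0.875. Of the cytokine receptor, STAT and SOCS genes, Stat5b passed with 17 and 8 reads within the gene (2.12, 0.869 to 5.69), 1 of 28 islands (3.57%). The list of chemokine, homing and lipid receptors had 3 of 24 (12.5%). Gpr183 had 32 and 21 reads at the far end of its gene (1.52, 0.852 to 2.78) beside 44 and 49 at its start. Itgb3, an integrin subunit, had 16 and 10. The third was assigned to Ebi3, which was on the list but is a cytokine subunit and not a homing gene. It had 29 and 22 reads at an internal start of the neighbouring Zfp119b.

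Lists of activation and stem-like genes had 1 high-ratio island each, too few to set apart from the background of 5.25%. AP-1 and immediate early genes had 1 of 36 islands (2.78%), near Jund with 18 and 14 reads, and memory and stem-like factors 1 of 26 (3.85%), within Foxp1. Foxp1, a forkhead repressor of lymphocytes, had 35 and 20 reads there (1.75, 0.983 to 3.20), while its 6 other islands ran from 0.481 to 1.00. Housekeeping genes had 2 of 21 (9.52%), Eef2, a translation elongation factor (31 and 24 reads), and Hprt, a purine salvage enzyme (17 and 11). Both lay at gene ends, 2 of the list's 18 gene-end islands, where 2.19% of all gene-end islands passed, a count close to the 2 of 17 of the LTi list. Of the lists for other cells of a Peyer's patch, those for group 2 innate lymphoid cells, T cells, B cells and myeloid cells had 0 of 4, 0 of 5, 0 of 6 and 0 of 9 islands. The ILC1 and NK list had 1 of 6, over Nkg7 (19 and 14 reads, 1.36, 0.645 to 2.93), and the epithelial, endothelial and stromal list 1 of 4, within Pecam1 (18 and 8, 2.25, 0.931 to 5.98). The synapse and nervous system list had 0 of 4 by nearest end, while 2 of its genes, Dscam (22 and 9 reads) and Cntn1 (16 and 10), held one deep within the gene. With 9 or fewer islands each, those lists cannot be set apart from the background. Over all 18 lists, 29 of 220 genes with an island of 16 or more reads had a high-ratio one (13.2%), against 5.15% of all such genes. The lists were written with earlier results of these data known, so this share is a description. Neither the number of islands per gene nor their place was matched.

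The remaining genes spread over many functions. For 220 genes, holding 236 of the 507 islands, a function was assigned after the islands were known, so the groups carry no test. The 20 genes of kinases, phosphatases and second messengers held 21 islands, of which 18 lay within genes, 3 at gene ends and 0 between genes. They included Mapkapk2 and Mapk14 of the p38 pathway, with 28 and 22, 16 and 12, and 16 and 9 reads, and Map2k6, which activates p38, with 21 and 16, the last over a start. Among 34 genes of small GTPase, actin and adhesion function, 27 of 37 islands lay within genes. Arhgef3, a RhoA exchange factor, held 3, with 19 and 7 (2.71, 1.09 to 7.64), 19 and 12 and 19 and 13 reads, and Cyfip2, a WAVE complex subunit, had 26 and 13 (2, 0.991 to 4.24). Dock2 and Rac2, which drive lymphocyte migration, had 16 and 10 and 16 and 12.

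Transcription factor and coregulator genes held 28 and 19 islands. Of the coregulators' 19, 15 lay within genes and 2 at gene ends. Cdyl2, a chromodomain protein, had 23 and 9 reads 23.3 kb from its end (2.56, 1.14 to 6.28), Nr6a1, an orphan nuclear receptor, 20 and 10, Epas1, a hypoxia-induced factor, 24 and 14, and Zmiz1, a coactivator, 16 and 8. Nrip1, a nuclear receptor corepressor, held 2, with 18 and 15 and 18 and 13 reads, beside 29 and 64 over its gene end (0.453, 0.282 to 0.713). Hoxa7 and Hoxa11, homeobox genes of the HoxA cluster, had 23 and 12 (1.92, 0.915 to 4.23) and 19 and 14 reads at gene ends 24.8 kb apart.

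Metabolic and mitochondrial genes and those of DNA repair and cell cycle had 14 of 32 and 7 of 15 islands at gene ends (43.8% and 46.7%), against 18.9% of the GTPase, actin and adhesion group and 14.3% of the kinase group. The small Wnt group had 3 of 6. Over the 13 groups the share ran from 10.5% to 50%, and over all 507 high-ratio islands it was 30.2%. Islands of these groups that did not pass were not counted, so the shares cannot be tied to function. Pygl, liver glycogen phosphorylase, had 22 and 13 reads, and Ckm, muscle creatine kinase, 21 and 15. Ercc5, a repair endonuclease, had 33 and 17 reads over its start (1.94, 1.05 to 3.72), 1 of the 26 intervals wholly above 1. Rad51b, a recombination factor, held 3 within its long gene body, with 18 and 10, 22 and 13 and 24 and 19 reads, and its start had 28 and 29. Parp1, a DNA damage sensor, had a pair 600 bp apart and 17.7 to 21.5 kb from its start, with 16 and 9 and 19 and 13 reads. Glycosylation genes held 15 islands, 4 of them in the Galnt family that starts mucin-type O-glycans: Galnt9 (18 and 8), Galnt1 (38 and 29), Galnt2 (17 and 13) and Galnt6 (22 and 17).

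Some high-ratio islands had neighbours of their kind. In 21 cases the next one lay under 50 kb away, and 41 islands were in such a pair. One pair lay between genes on chromosome 12, with Id2, the inhibitor of E proteins that all innate lymphoid cells need, as the nearest gene. These islands (chr12:25188601-25192800 and chr12:25238401-25242000) lay 92.5 and 142 kb from Id2 and had 36 and 25 reads (1.44, 0.841 to 2.5) and 44 and 31 reads (1.42, 0.876 to 2.32). Over Id2 itself 58 and 107 reads (0.542, 0.387 to 0.753) and 30 and 45 reads (0.667, 0.406 to 1.08) were counted. The pair has no gene end within 50 kb, and no link to Id2 was measured. Other islands far from any gene end lay on chromosome 10 (39 and 27 reads, 143 kb from Reep3) and chromosome 17 (30 and 18 reads, 328 kb from Satb1, a chromatin organizer of lymphocytes).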

How the data were processed

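The labels describe 4 DNase-seq libraries of 300 sorted LTi cells each, treated with DNase I (0.3 U, 5 minutes). The authors deposited 1 table of islands. Bowtie2 2.4.2, SICER 2.0 and build mm10 are named in the submitters' processing notes, without settings. Per the file headers the deposited columns are read counts on a peak and a control side, a p-value, an FDR and a fold. The scaling was worked out from the values: the fold equals the ratio after control-side reads are multiplied by 0.345. The counts are as deposited, without normalization, and total 425134 and 645087 reads in islands. Library depth and pooling were not given in the sources used here.

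Python 3.11.15, pandas 2.3.3 and SciPy 1.17.1 were used. Coordinates were made 1-based. Exact 95% intervals of a ratio came from the binomial share of peak-side reads, cover counting error only and assume independent reads. Each island took the closest end of a RefSeq protein-coding gene (21900 genes, GRCm38.p6) within 50 kb, ties going to the end nearest the island's centre. Exons were not used. Starts and sequences came from the RefSeq promoter table, and all 4 promoters printed were matched by symbol. Of 413 listed symbols 412 matched. The steps were tested on simulated reads and planted islands. Islands named in the text are the 15 of largest ratio and of most reads, those of the gene lists, genes with several islands, those at the threshold, far from genes, widest or narrowest. Examples of the function groups, far ends and internal starts were chosen after their values were seen. The islands, lists and motifs were chosen with earlier results of these data known. The planned edgeR comparison of genotypes was not run, because no column is tied to a library.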

Additional observations from a re-analysis of the deposited data

How the results depend on the processing

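The number of high-ratio islands depends on both thresholds. In place of 507 it was 1153 with 12 or more peak-side reads, 254 with 20 and 64 with 30. It was 1171 at a ratio of 1.0 and 211 at 1.5, and 249 islands had a lower counting bound above the median ratio of all islands. Leaving out X, Y and mitochondrial islands left 496, and adding the FDR of the authors' deposited table left 507. The gene-end share of 30.2% was 21.8%, 38.2% and 56.2% with 12, 20 and 30 reads, 41.8% and 17.1% at ratios of 1.0 and 1.5, and 34.7% within 2000 bp. With all gene types it was 38.1%. It was 22.1% in islands of 16 to 19 reads and 56.2% in those of 30 or more. The islands not passing had 66.3%, 79.3% and 85.1% at 12, 20 and 30 reads, 76.5% and 73.5% at ratios of 1.0 and 1.5, and 80.7% with all gene types, above the passing islands in each of these settings. Within 10, 25 and 100 kb, 53.3%, 70.6% and 91.7% had a gene end, in place of 83.8%. The median width of 2000 bp was 1800 bp with 12 reads and 2600 bp with 30. Classes of depth, the counting bound for place and width, and gene bodies for lists (24 genes in place of 29) were chosen after seeing the data. No paired analysis was possible because neither read column names a library or replicate, and the genotype fits, with each replicate left out, were not run for the same reason. Depth limits the ratio of single islands: 481 of the 507 intervals reach 1 or lower. That line stands for equal unscaled reads, a fold of 2.90 after the authors' scaling, and not for equal scaled reads.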
